A study of Mus musculus with 12 samples.

Results

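SLM2 (also called KHDRBS3) is an RNA-binding protein of the STAR family, expressed in selected neuron types, that contacts short U- and A-rich elements of pre-mRNA through its KH domain and is known as a regulator of alternative splicing of synaptic transcripts. Its motif is the tetramer UWAA, in which W stands for U or A, so that the tetramer reads UUAA or UAAA. Introns are removed during splicing, and the regions described here are the stretches of pre-mRNA deep inside introns at which SLM2 was cross-linked and at which this tetramer recurred. RNA bound to SLM2 was measured by enhanced cross-linking and immunoprecipitation (eCLIP), in which RNA cross-linked to the protein by UV light is purified, sequenced and compared with size-matched input RNA. The libraries used here came from wild-type mice aged 30 days, with 2 eCLIP and 2 input libraries from whole brain and 2 and 2 from hippocampus. UV light was applied in 3 exposures of 400 mJ/cm2, and the lysates were from whole tissue, so the cells in which an RNA was bound cannot be told apart. Libraries from *Slm2* KO hippocampus were not analysed here. The authors merged the replicates of a tissue into 1 peak list, so no value below has a spread between replicates, and the tests compare peaks within genes or regions within genes.

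The peaks were chosen by position and sequence. A whole-brain peak was called motif-rich if its centre lay in an intron and more than 1000 nt from every exon on the same strand, if at most 50% of the bases within 50 nt of the centre were repeat-masked, and if at least 3 whole UWAA tetramers lay in that window on the sense strand. Tetramers are counted by their starts and may overlap, so UUAAA holds 2. Of the 2057 whole-brain peaks, 931 (45.3%) met the rule, and they lay in 207 genes, 201 of them protein-coding. Under the same rules for position and repeats, 317 peaks had 1 or 2 starts and 211 had none (motif-free). Another 282 deep intronic peaks were repeat-masked, and 316 peaks lay in or near exons. In the hippocampal list 27 of 178 peaks met the rule. The authors' log2 fold change of eCLIP over input had a lower limit of 2 by their threshold. Among motif-rich peaks it ranged from 2.00 to 6.04 with a median of 2.58, and 226 of them reached 3. Peak length ranged from 22 to 600 nt with a median of 111 nt.

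The sequences of 9 motif-rich peaks show how the tetramers were arranged. Each run below is the window of 50 nt to each side of the peak centre from the mm10 genome, written 5′ to 3′ as RNA in the direction of the transcript, with UWAA in capitals. The first 4 are the motif-rich peaks with the highest log2 fold change.
*Pex5l*: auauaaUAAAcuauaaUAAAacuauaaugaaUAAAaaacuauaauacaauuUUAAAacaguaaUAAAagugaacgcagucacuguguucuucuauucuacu
*Gm13660*: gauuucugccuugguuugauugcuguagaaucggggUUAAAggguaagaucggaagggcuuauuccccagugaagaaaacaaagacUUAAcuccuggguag
*Dlg2* (first peak): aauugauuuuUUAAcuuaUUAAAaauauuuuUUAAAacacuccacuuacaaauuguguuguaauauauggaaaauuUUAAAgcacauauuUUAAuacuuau
*Dlg2* (neighbouring peak): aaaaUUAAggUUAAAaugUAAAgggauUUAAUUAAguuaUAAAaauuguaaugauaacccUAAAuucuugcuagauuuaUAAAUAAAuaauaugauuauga
The highest log2 fold change of all motif-rich peaks, 6.04, was in *Pex5l*, which encodes an auxiliary subunit of HCN channels. This window (chr3:33125090-33125190, minus strand) held 6 UWAA starts in its 5′ part, where UAAA stood beside a UAA that is not part of UWAA, as in the words auaaUAAA and UAAAacuauaa, and such UAA occurred 5 times. It lay 6426 nt from the nearest exon. The window in the lincRNA gene *Gm13660* (chr2:75461416-75461516, minus strand) had a log2 fold change of 4.90 but belongs to a peak of 24 nt that matched the sequencing adaptor over at least 10 nt. It was 1 of 2 motif-rich peaks with such a match. Neighbouring peaks of *Dlg2*, which encodes the postsynaptic scaffold PSD-93, both had a log2 fold change of 4.66 and held 8 and 10 starts (chr7:91102576-91102676 and chr7:91102755-91102855, plus strand).

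The next sequences are the 2 motif-rich peaks with the most UWAA starts and, of the 6 tied behind them, the one with the highest log2 fold change.
*Kcnq5*: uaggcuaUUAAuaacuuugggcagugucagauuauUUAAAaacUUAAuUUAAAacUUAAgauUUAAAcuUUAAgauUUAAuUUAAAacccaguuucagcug
*Lrrtm4*: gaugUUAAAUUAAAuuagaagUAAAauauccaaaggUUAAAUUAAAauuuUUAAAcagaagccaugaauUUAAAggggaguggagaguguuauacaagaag
*Prkg1*: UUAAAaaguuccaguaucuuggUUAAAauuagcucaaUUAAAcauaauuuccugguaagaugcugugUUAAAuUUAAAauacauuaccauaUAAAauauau
*Kcnq5*, which encodes a subunit of M-type potassium channels, and *Lrrtm4*, which encodes a postsynaptic adhesion molecule, each had a window with 13 starts (chr1:21852678-21852778, minus strand, and chr6:80193005-80193105, plus strand). The *Kcnq5* peak had a log2 fold change of 4.24 and the *Lrrtm4* peak 2.74, so equal numbers of starts went with unequal enrichment. The window in *Prkg1*, the gene of a cGMP-dependent protein kinase, held 11 starts (chr19:31250407-31250507, minus strand) at a log2 fold change of 3.65. The other peaks with 11 starts lay in *Prkg1* again (log2 fold change 3.09), *Ptchd4* (3.36), *Anks1b*, which encodes a postsynaptic scaffold (3.17 and 2.24), and *Kcnd2*, which encodes a Kv4 potassium channel (2.21).

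The last motif-rich sequences are the highest of those not yet shown that overlapped a hippocampal peak, and beside them stand the 2 motif-free peaks with the highest log2 fold change and no adaptor match.
*Frmpd4*: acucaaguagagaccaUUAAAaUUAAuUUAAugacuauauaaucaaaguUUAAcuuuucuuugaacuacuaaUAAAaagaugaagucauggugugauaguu
*Grik2*: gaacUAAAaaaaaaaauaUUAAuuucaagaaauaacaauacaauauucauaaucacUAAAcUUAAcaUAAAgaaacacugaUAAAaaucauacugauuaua
*Elfn2*: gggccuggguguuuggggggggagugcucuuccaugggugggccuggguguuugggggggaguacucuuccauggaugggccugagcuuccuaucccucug
*Rbfox3*: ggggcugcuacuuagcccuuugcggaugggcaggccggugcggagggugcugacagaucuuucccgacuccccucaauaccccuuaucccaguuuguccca
*Frmpd4*, which encodes a postsynaptic scaffold, and *Grik2*, which encodes a kainate receptor subunit, held 6 starts each (chrX:168003722-168003822 and chr10:49258411-49258511, both minus strand), with log2 fold changes of 4.41 and 4.38. The motif-free windows of *Elfn2* (chr15:78709394-78709494, minus strand, log2 fold change 4.43) and *Rbfox3* (chr11:118848716-118848816, minus strand, 4.27) were rich in G and C and held no UAA outside UWAA either.

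Many motif-rich peaks lay in a small number of genes. The 9 genes described next, each among the 10 with the most motif-rich peaks, held 320 of the 931 (34.4%) and 511 of all 2057 whole-brain peaks (24.8%), while 111 genes held a single motif-rich peak. *Ptprd*, which encodes a presynaptic receptor phosphatase that organizes synapses, led with 56. Their log2 fold changes ran from 2.03 to 4.44 with a median of 2.66. *Cadm2*, the gene of a synaptic cell adhesion molecule, held 54, with log2 fold changes from 2.02 to 3.76 (median 2.40), and 34 of these lay in 1 intron of 354 kb. *Pcdh9*, a protocadherin gene, held 39 (2.02 to 3.38, median 2.36) and *Dlg2* 35 (2.04 to 4.66, median 2.63). *Nrg3*, which encodes a neuregulin, held 34 (2.07 to 3.89, median 2.76). *Csmd1*, which encodes a transmembrane protein with complement control domains, and *Lrrtm4* held 27 each. *Nlgn1*, which encodes a postsynaptic neuroligin, and *Syt1*, the gene of the calcium sensor for synaptic vesicle fusion, held 24 each. The ranges of these 9 genes overlapped throughout, and each began close to the authors' threshold.

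**Figure D1:**
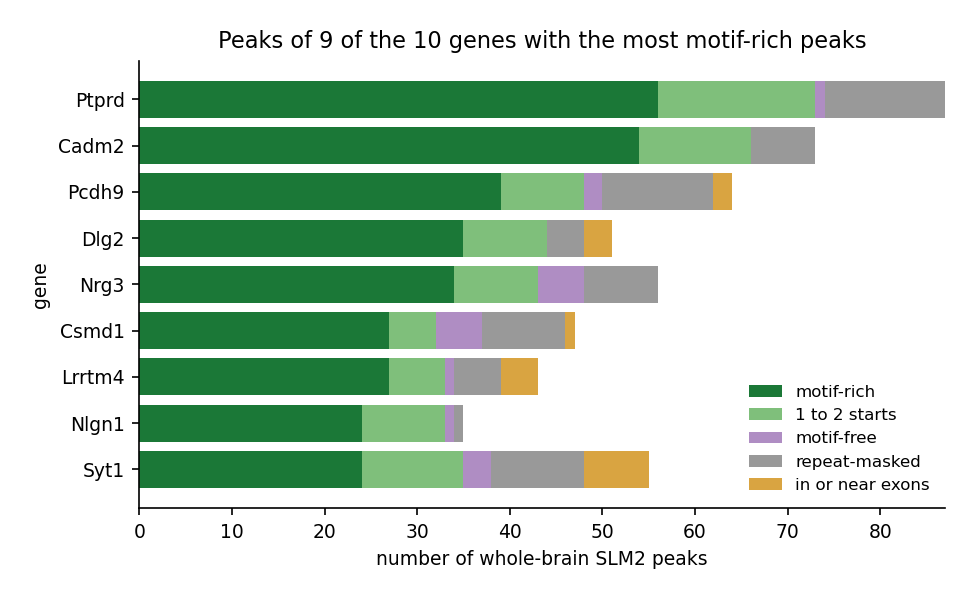
Number of whole-brain SLM2 peaks in 9 of the 10 genes with the most motif-rich peaks, coloured by class of peak. Motif-rich peaks (dark green) are the largest class in every one of these genes, from 56 in Ptprd to 24 in Nlgn1 and Syt1.

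Most genes with many deep intronic peaks had them mainly at motif-rich sequence, with a few exceptions. Over all deep intronic unmasked peaks, 931 of 1459 (63.8%, exact 95% binomial interval 61.3 to 66.3, counting error only) were motif-rich. Among the 61 genes with at least 5 such peaks, the median share was 75.0% (quartiles 63.2 and 80.0), and the share was over 50% in 54 genes. All deep unmasked peaks were motif-rich in *Mef2c* (5), *Nrxn3* (10), *Oxr1* (7), *Pcdh7* (5) and *Pex5l* (8), genes picked for this share after their values were seen. At the other end stood *Rbfox3*, the gene of the neuronal splicing factor known as NeuN, with 1 motif-rich peak among 82. That peak was also the longest, at 600 nt, with a log2 fold change of 2.90 and 4 starts. *Grm4*, which encodes a metabotropic glutamate receptor, had none among 21, where 16 were motif-free. *Csmd1* had 5 motif-free peaks beside its 27 motif-rich ones.

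The motif-rich sequence itself was common in these introns, and peaks covered little of it. The deep intronic unmasked sequence of the 207 genes was divided into 742859 adjoining windows of the same length, of which 169623 (22.8%) held at least 3 UWAA starts. In the same 207 genes 931 of 1309 deep unmasked peaks (71.1%) were motif-rich. That share is set beside the background as a description, since the number of starts defined the class and each of these genes was taken for holding at least 1 such peak. Of the motif-rich windows, 1466 (0.864%) touched a whole-brain peak, and over the 207 genes this share ran from 0 to 8.57% with a median of 0.600%. Among the genes with the most motif-rich peaks it was 1.56% in *Dlg2*, 1.71% in *Ptprd*, 3.84% in *Cadm2* and 4.23% in *Syt1*. In *Rbfox3* 4.47% of windows were motif-rich, against 27.8% in *Ptprd* and 33.0% in *Cadm2*. A window without a peak may still have been bound below the authors' thresholds, and read coverage along the introns was not analysed here.

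Motif-rich peaks differed in sequence from motif-rich windows of the same genes that touched no peak. These comparisons were chosen after the data were seen. Each gene was scored by the share of its pairs, 1 peak and 1 window, in which the peak had the higher value, and an exact two-sided sign test over the 40 genes with at least 5 motif-rich peaks was adjusted by Benjamini-Hochberg over 10 features. The number of starts, which the rule used, is given without a test: it was 4.99 ± 1.79 on average (SD over 931 peaks) and 3.89 in 168157 windows, and without overlap the tetramers numbered 3.89 and 2.99. UAAA made up 59.4% of the starts in peaks and 52.8% in windows, higher in 33 genes and lower in 7 (exact sign test, adjusted p = 7.0e-05). In *Csmd1* the share of UAAA was 64.0% against 52.0% and in *Adgrb3*, an adhesion receptor gene that follows the 10 leading genes by rank, 64.8% against 51.9%. In *Syt1* the shares lay together (51.6% against 51.9%).

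UAA was more frequent in motif-rich peaks also where it was not part of UWAA. The rule counted UAA only after U or before A, so UAA that follows A, C or G and precedes C, G or U was left aside by it. Such UAA started 1.77 ± 1.40 times per peak (SD) and 1.06 ± 1.06 times per window, and the peaks were higher in 38 of 40 genes (exact sign test, adjusted p = 7.5e-09). Its reverse complement UUA, counted under the mirrored condition in the same strand, started 1.11 times per peak and 1.07 times per window. It was higher in 22 genes and lower in 18 (exact sign test, adjusted p = 0.636). The windows were not matched to the peaks in share of A or in number of UWAA starts, both higher in peaks. The part of these in the excess of UAA was not tested, and UUA, with fewer A, does not measure it. *Dlg2* peaks held 2.11 of these UAA against 1.05 in its windows, *Ptprd* peaks 1.86 against 1.12, *Cadm2* peaks 1.76 against 1.19 and *Lrrtm4* peaks 1.41 against 1.03. At least 1 was present in 767 peaks (82.4%), against 64.1% of windows. Where no base was repeat-masked, in 265 peaks and 64581 windows, the means were 1.78 and 1.01, with 14 of 15 genes higher (exact sign test, adjusted p = 0.00293). The peaks with 1 or 2 UWAA starts had it too: in the same genes they held 1.71 against 0.951 in windows with 1 or 2 starts, with 16 of 17 genes of at least 5 such peaks higher (exact sign test, p = 2.7e-04, adjusted p = 0.00357). Motif-rich peaks and peaks with 1 or 2 starts could not be separated by it within 77 genes, 38 higher and 32 lower (exact sign test, adjusted p = 0.720). Motif-free peaks held 0.969 of these UAA against 0.816 in their windows, higher in 26 and lower in 12 of 38 genes (exact sign test, adjusted p = 0.143). Within these genes motif-rich peaks were higher than motif-free peaks in 24 and lower in 12 (exact sign test, adjusted p = 0.155).

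**Figure D2:**
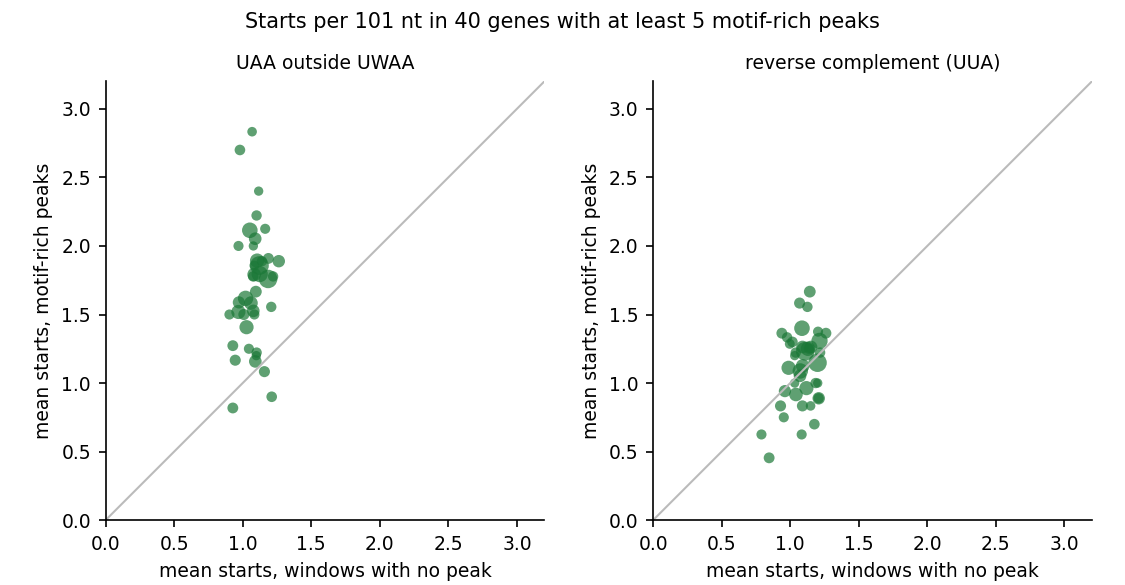
Mean number of starts per window in motif-rich peaks (vertical axis) and in motif-rich windows with no peak (horizontal axis), 1 point per gene for 40 genes, larger for more peaks. On the left, UAA outside UWAA lies above the diagonal of equal values in 37 of the 40 genes, while its reverse complement on the right scatters about it (22 above, 18 below).

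Words of 7 nt showed the same difference. Among 721 words found at least 20 times in motif-rich peaks, AUAAUAA stood second by ratio, with 139 occurrences per 1000 peaks and 36.0 per 1000 windows (3.85 times), and CUAAUCU, with 23 occurrences in all, first (4.19 times). AUAAUAA was present in 100 peaks of 62 genes, 2 times in the *Pex5l* sequence above. Where no base was repeat-masked its ratio was 3.66. The words UUUAAAA and UUAAAAA, which hold UWAA next to further A, were frequent, at 216 and 172 per 1000 peaks. Their ratios to the windows were 1.41 and 1.46 and stood at ranks 354 and 329. The windows too were taken for at least 3 UWAA starts, so words that hold UWAA are frequent in them by the rule. AUAAUAA and CUAAUCU hold no UWAA, so their ratios cannot be ranked against these on 1 scale. The lowest ratio of the 721 words was that of UUUUUUU, 0.359. These ratios are descriptions, and the windows of 34 motif-rich peaks overlapped that of another, so that some occurrences are shared between peaks.

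The base composition of the peaks differed from that of the windows too. A made up 37.8% of the bases in motif-rich peaks against 34.5% in the windows (higher in 39 of 40 genes, exact sign test, adjusted p = 7.5e-10), and G and C together 30.1% against 32.3% (lower in 35 of 40, adjusted p = 3.5e-06). Part of UWAA is A, and the peaks held more starts than the windows, so these shares are not independent of the rule. The share of U was 32.2% against 33.2%, lower in 26 and higher in 14 genes (exact sign test, adjusted p = 0.0897). Runs of U were shorter, 3.70 against 4.04 nt for the longest run (lower in 33 of 40, exact sign test, adjusted p = 7.0e-05). Runs of A were longer, 4.47 against 4.27 nt (higher in 36 of 40, exact sign test, adjusted p = 6.2e-07). Every UWAA ends in AA and the peaks held more starts, so runs of A are not independent of the rule either. The reverse complement of the motif, UUWA, started 3.44 times in peaks and 3.24 times in windows (26 genes higher, 14 lower, exact sign test, adjusted p = 0.0897). Next to UAAA, G was the following base in 12.2% of cases in peaks and 18.5% in windows. Repeat-masked bases made up 18.8% of the peaks and 16.5% of the windows.

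UWAA lay more often on the 5′ side of the peak centre than on the 3′ side. In the 50 nt upstream of the centre of motif-rich peaks, UWAA was present 5.73 times per 100 nt and in the 50 nt downstream 4.45 times, by the middle of each tetramer. In the rule's window only the total was used, not the side. From 50 to 100 nt, outside that window, the densities were 4.43 upstream and 2.82 downstream, a difference of 1.62. It was positive in 134 genes and negative in 42 (exact two-sided sign test over 207 genes, adjusted over 12 comparisons, p = 2.6e-11), and in 33 against 5 of the genes with at least 5 motif-rich peaks (adjusted p = 4.7e-05). From 100 to 200 nt the densities were 2.75 and 2.57 (exact sign test, adjusted p = 0.211), and from 200 to 500 nt 2.28 and 2.14 (adjusted p = 0.823). Among the genes with at least 5 motif-rich peaks, 20 were higher upstream and 19 downstream from 100 to 200 nt (exact sign test, adjusted p = 1), and 28 and 12 from 200 to 500 nt (adjusted p = 0.0456), so at the longest distance the call depended on the genes taken. Peaks with 1 or 2 starts had 1.84 upstream and 1.36 downstream within 50 nt (exact sign test, adjusted p = 0.0186) and 3.59 and 2.46 from 50 to 100 nt (adjusted p = 0.0637, and 0.0494 with 11 genes against 2 of those with at least 5 such peaks). From 200 to 500 nt they had 2.03 and 1.85, with 72 genes higher upstream and 44 downstream (exact sign test, adjusted p = 0.0355, and 1 with 9 against 9 of the genes with at least 5). Motif-free peaks had 1.46 and 1.00 from 50 to 100 nt, with 32 genes higher upstream and 21 lower (exact sign test, adjusted p = 0.290). Whether the 3 classes differ in this was not tested.

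**Figure D3:**
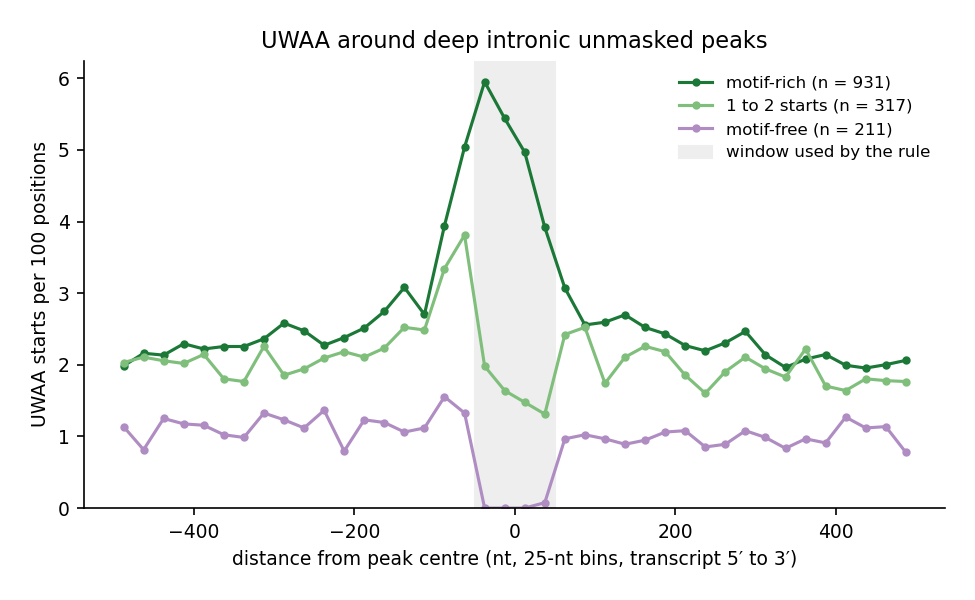
UWAA starts per 100 positions in 25-nt bins around the centre of motif-rich peaks, peaks with 1 or 2 starts and motif-free peaks, with the window of the rule shaded. Outside that window the motif-rich peaks keep more UWAA on the upstream (left) side, 4.49 against 2.80 starts per 100 positions from 51 to 100 nt. These count tetramers by their starts, not by their middles.

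The density of UWAA beyond the window fell with distance and, pooled over peaks, stayed above that of motif-free peaks, but within genes the 2 classes were not separated by it. The pooled values compare different genes: of the 211 motif-free peaks, 62 lay in *Rbfox3* and 16 in *Grm4*. Motif-rich peaks had 2.66 starts per 100 positions between 100 and 200 nt on both sides and 1.91 between 500 and 1000 nt, and motif-free peaks had 1.06 and 0.991. Within the 38 genes that held both classes, the density between 100 and 500 nt was 2.08 around motif-rich and 1.90 around motif-free peaks, higher in 22 genes and lower in 15 (exact sign test on gene means, adjusted p = 0.370). The base composition of neighbouring sequence is not independent of the window.

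Motif-rich peaks lay toward the 5′ end of their introns. Here an intron is the gap between neighbouring exons of any annotated transcript on the strand. The median distance to the nearest exon was 21.5 kb (1028 nt to 234 kb), and 485 peaks lay more than 20 kb away. The rule set a lower limit on this distance, so it is given as a description. It was not compared with that of windows or of other classes. The motif-rich peaks fell in 383 introns with a median length, over peaks, of 109 kb. Of the 931 peaks, 572 (61.4%) lay in the 5′ part of the intron before its midpoint, and when each intron was divided into 4 equal stretches from the 5′ end, these held 296, 276, 230 and 129 peaks. On a scale from 0 at the 5′ end to 1 at the 3′ end the mean position was 0.423 ± 0.263 (SD), against 0.495 for motif-rich windows with no peak. Peaks lay nearer the 5′ end in 30 of 40 genes with at least 5 of them (exact sign test, adjusted p = 0.00317). *Ptprd* (0.331 against 0.499), *Nlgn1* (0.321 against 0.508) and *Syt1* (0.297 against 0.498) showed this, while the peaks of *Cadm2* had a mean position of 0.575 against 0.491 and those of *Dlg2* 0.548 against 0.498. Among the 265 peaks with no repeat-masked base the mean was 0.436 against 0.495, nearer the 5′ end in 10 of 15 genes (exact sign test, adjusted p = 0.453). Peaks with 1 or 2 starts had a mean position of 0.415 against 0.497 in their windows, lower in 56 and higher in 21 of 77 genes (exact sign test, adjusted p = 6.98e-04), with 11 lower and 6 higher among genes with at least 5 of them (exact sign test, p = 0.332). Motif-rich peaks and peaks with 1 or 2 starts did not separate by position within 77 genes, 33 higher and 35 lower (exact sign test, p = 0.904). Motif-free peaks had a mean position of 0.391 against 0.499 in their windows. They were lower in 25 and higher in 13 of 38 genes (exact sign test, adjusted p = 0.155). Within these 38 genes motif-rich peaks were higher than motif-free peaks in 18 and lower in 18, so the position was not particular to motif-rich peaks.

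**Figure D4:**
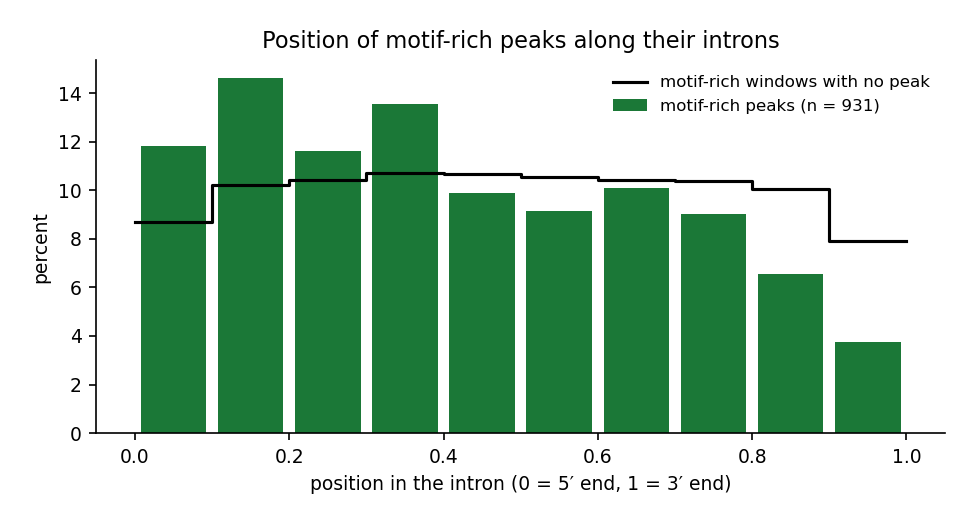
Share of motif-rich peaks (bars) and of motif-rich windows with no peak (line) in each of 10 equal stretches of the intron from its 5′ to its 3′ end. The last stretch held 35 peaks (3.76%) against 7.91% of the windows, and the second 136 peaks (14.6%) against 10.2%.

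A part of the motif-rich peaks lay close together. With gaps of up to 1000 nt, 289 peaks (31.0%) shared a site with another, and 36 sites held at least 3. With gaps of up to 100 nt, 126 peaks (13.5%) did. Some of these nearly touched, as in *Pex5l* at chr3:33125067-33125212 and chr3:33125214-33125373, and whether such neighbours are separate sites was not tested. The other classes were not compared in this. With gaps of up to 1000 nt, the largest site held 7 peaks within 1630 nt of *Mdga2*, which encodes a neuroligin-binding adhesion molecule. Its peaks had log2 fold changes from 2.34 to 3.05 and 36 starts in all. At the same gap a site of *Nlgn1* held 6 peaks in 2208 nt (2.01 to 2.90), and sites of *Phactr1*, *Csmd1* and *Celf2* held 5 each. With gaps of up to 100 nt the largest site held 3.

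Enrichment differed little by the number of UWAA starts. The median log2 fold change was 2.48 for the 224 peaks with 3 starts, 2.57 for 4, 2.59 for 5, 2.65 for 6, 2.66 for 7 and 2.75 for the 98 peaks with 8 or more, with quartiles that overlapped throughout. Across the 931 peaks, which share genes, Spearman's rho was 0.15 and Pearson's r 0.16, given as a description. The 181 peaks just outside the rule, with 2 starts, had a median of 2.53, above that of the peaks with 3. Just inside the limit on exon distance, up to 500 nt past it, the median was 2.60 in 25 peaks, and just outside it, up to 500 nt short of it, 2.45 in 32. At 40 to 50% masked bases it was 2.78 in 104 peaks, and at over 50 to 60% it was 2.57 in 74 peaks that met the other conditions.

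**Figure D5:**
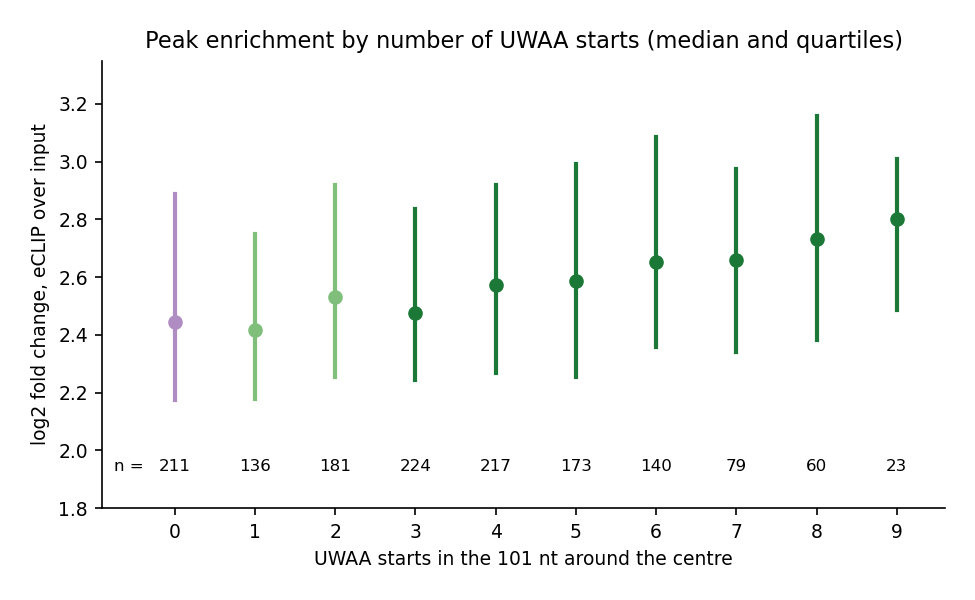
Median (points) and quartiles (bars) of the authors' log2 fold change of eCLIP over input for deep intronic unmasked peaks by number of UWAA starts, for numbers with at least 20 peaks (n below each). The medians of motif-rich peaks (dark green) go from 2.48 at 3 starts to 2.80 at 9, and the quartile ranges overlap.

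Within genes, motif-rich peaks were slightly more enriched than motif-free peaks by gene means, and this depended on how a gene was scored. In the 38 genes with both classes, the mean log2 fold change was 2.67 at motif-rich and 2.49 at motif-free peaks, a difference of 0.18, with 29 genes higher and 9 lower (exact two-sided sign test, adjusted p = 0.0133 over 8 comparisons). In 23 of these 38 genes the motif-free value was that of a single peak. Log2 fold changes have a lower limit and a tail above it, so a mean of many peaks tends to exceed a single peak even without a difference. The test on gene means therefore leans toward the class with more peaks. The share of pairs of peaks in which the motif-rich peak is higher does not lean in this way with the number of peaks. As a mean over the 38 genes this share was 63.4%. By it 25 genes were higher and 10 lower (exact sign test, p = 0.0167, adjusted p = 0.115). In *Nrg3* the medians were 2.76 at motif-rich and 2.22 at motif-free peaks and in *Csmd1* 2.59 and 2.73. Against peaks with 1 or 2 starts the difference was 0.12 in 77 genes, 50 higher and 27 lower (exact sign test, adjusted p = 0.0277, and 0.201 by pairs). Against peaks in or near exons it was 0.080, 35 higher and 16 lower of 51 genes (exact sign test, adjusted p = 0.0277, and 0.201 by pairs). Against repeat-masked deep intronic peaks it was 0.063, 43 higher and 37 lower (exact sign test, adjusted p = 0.576).

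Peak length and reproducibility were compared in the same 38 genes. Motif-rich peaks were 136 nt long and motif-free peaks 110 nt as means over genes, longer in 27 and shorter in 11 (exact sign test, adjusted p = 0.0277, and 0.115 by pairs). The motif-free value was again that of a single peak in 23 of the 38 genes. The difference of 26.2 nt was 13.7 nt without *Rbfox3*, whose single motif-rich peak is the one of 600 nt (26 genes longer, 11 shorter, exact sign test, adjusted p = 0.0401), and −0.532 nt with the window on the 5′ end of the peak (adjusted p = 0.615). The −log10 of the irreproducible discovery rate (IDR), which measures how well the ranks of a peak agree between replicates, was 2.63 and 2.50, higher in 25 and lower in 13 genes (exact sign test, adjusted p = 0.117).

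Motif-rich peaks were found in the hippocampal list about as rarely as whole-brain peaks in general. Of the 931 peaks, 21 (2.26%, exact 95% interval 1.40 to 3.43) overlapped, by 1 nt or more, a hippocampal peak, against 2.87% of all whole-brain peaks. The shares of the other classes were 8 of 317 with 1 or 2 starts (2.52%, 1.096 to 4.91), 3 of 211 motif-free (1.42%, 0.294 to 4.10), 15 of 282 repeat-masked (5.32%, 3.01 to 8.62) and 12 of 316 in or near exons (3.80%, 1.98 to 6.54). By the study's sequencing statistics the hippocampal libraries were less deep, so tissue and depth cannot be told apart. Within the 38 genes with both classes the shared fraction was higher for motif-rich peaks in 5 genes, lower in 1 and equal in 32 (exact sign test, adjusted p = 0.292). The 21 peaks lay in 12 genes and overlapped 18 hippocampal peaks. Their whole-brain log2 fold changes ran from 2.05 to 6.04 with a median of 3.60, and that of the other 910 motif-rich peaks was 2.58. Among them were 3 *Pex5l* peaks (6.04, 4.08 and 3.92 in whole brain, 2.99 to 3.43 in hippocampus), with *Dlg2* (4.66 and 2.79), *Frmpd4* (4.41 and 2.37) and *Grik2* (4.38 and 2.57). *Csmd1* had 5, the most of any gene. In 16 of the 21 the whole-brain value was the higher, among a set that the whole-brain list defined. The hippocampal peaks of 11 of the 21 had a −log10 p under 2. Taken the other way, 27 of 51 deep intronic unmasked hippocampal peaks were motif-rich (52.9%, 38.5 to 67.1), and 17 of these 27 overlapped a whole-brain peak. Hippocampal peaks with 1 or 2 starts overlapped whole-brain peaks too, as in *Nrg3*, *Nrxn2* and *Rbfox3*, so such overlap was not particular to motif-rich peaks. It was not compared with the share over all hippocampal peaks. The 27 lay in 17 genes, 16 of which held motif-rich peaks in whole brain too. *Rbfox3* had the highest hippocampal value of the 27, 4.13.

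Grouped by function, synaptic adhesion genes held the largest number of motif-rich peaks. The lists were written with earlier results of these data known, so their counts are descriptions. Of 98 genes of synaptic adhesion and organizers, 32 held 423 motif-rich peaks, 45.4% of all, and the list held 33.8% of all whole-brain peaks. Of its 563 deep unmasked peaks 75.1% were motif-rich, against 63.8% over all genes. The latter includes *Rbfox3*, with 1 of 82. Over the 61 genes with at least 5 deep unmasked peaks the median share was 75.0%, close to that of the list. Potassium and HCN channels and their partners held 57 in 10 of 42 genes (83.8% of their deep unmasked peaks), led by *Kcnip4*, which encodes a Kv4 channel partner (19, highest log2 fold change 2.90), *Kcnh7* (9, 3.92) and *Pex5l* (8, 6.04). Excitatory postsynaptic scaffolds held 80 in 10 of 33 genes (74.8%), among them *Dlg2* (35), *Anks1b* (12, 3.28) and *Cnksr2* (11, 3.66). The presynaptic release machinery held 40 in 8 of 59 genes (65.6%), with *Syt1* first (24) and the active zone genes *Rims1* and *Rims2* at 4 each. Glutamate receptors held 40 in 9 of 26 genes (51.9%), with *Grm5* (12, 4.26), *Grik2* (8, 4.38) and *Gria4* (4, 2.90). RNA-binding proteins and splicing regulators stood lowest of these at 25 of 121 deep unmasked peaks (20.7%). Of these 121, 82 lay in *Rbfox3*, and *Celf2*, another splicing regulator gene, held 17 of the 25.

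The remaining lists held few peaks of any class. Axon guidance genes had 7 motif-rich peaks in 6 of 42 genes, 58.3% of their 12 deep unmasked peaks, led by *Epha5* with 2. In the GABAergic synapse list all 5 deep unmasked peaks were motif-rich, 4 of them in *Gphn*, which encodes the inhibitory scaffold gephyrin, and 1 in *Gabrg3*. So were all 3 of the calcium and sodium channels, in *Cacna1d* (log2 fold change 3.21), *Cacna2d1* (2.68) and *Scn1a* (2.19), and the single one of the 20 housekeeping genes, in *Ywhaz* (2.23). Astrocyte, oligodendrocyte and microglia or endothelium markers, 16, 18 and 18 genes, held 0, 3 and 0 deep unmasked peaks, none of them motif-rich. Gene length, RNA level and number of deep intronic positions differ between the lists, and their part in these counts was not tested.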

How the data were processed

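SLM2 eCLIP peak lists of wild-type whole brain and hippocampus were used as deposited, 1 merged list per tissue. Per the labels, adaptors were removed by the authors with cutadapt 3.4, alignment to mm10 used STAR 2.7.9, and duplicates were collapsed with UMI-tools 1.1.1. Peaks were called with CLIPper and the replicates merged by IDR. The deposited log2 values are fold changes of eCLIP over input, the deposited −log10 values hold the p-value of eCLIP against input, and the deposited score is −log10 IDR. The authors kept peaks with at least 2 in log2 fold change and in −log10 IDR. The lists have no column names. What the columns hold was inferred from the column names of the study's supplementary peak table, the thresholds in its methods and the ranges of the values, and their order is not stated in the sources used here. Read counts were not analysed here, so depth per peak is unknown.

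From the lists, peaks were matched to GENCODE vM21 by their centre on the same strand, 1 gene each (a protein-coding gene where there was one, next a lncRNA, and the longer of equals), and the GRCm38 sequence was read with repeats in lower case. A UWAA start counts if the whole tetramer lies within the window of 50 nt to each side of the centre. Classes were compared within genes by exact two-sided sign tests on gene means, with Benjamini-Hochberg adjustment at 0.05, and by the share of pairs of peaks as an alternative added after the data were seen. Windows of this length tiled the deep introns of the same genes. Sites with 10 or more nt of the sequencing adaptor were marked. Exact binomial intervals at 95% cover counting error only. Genes named are the 10 with the most motif-rich peaks (1 of them is not reported here), those of the 5 highest peaks by log2 fold change, by UWAA starts and by log2 fold change among peaks shared with hippocampus, up to 3 genes of each gene list, and the 3 with the most motif-free peaks. Others are examples chosen after their values were seen. The peaks, lists and tests were chosen with earlier results of these data known. The tests were tried on simulated data. Python 3.11.15, numpy 2.4.6, pandas 2.3.3, scipy 1.17.1, pysam 0.24.0 and matplotlib 3.10.9 were used. Alternatives changed the thresholds of the rule, the window, the gene score and the peaks or genes kept.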

Additional observations from a re-analysis of the deposited data

How the results depend on the processing

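The number of motif-rich peaks was 931 and lay between 707 and 1112 with 2 or 4 starts, other exon distances, adaptor peaks or leading genes left out, the window on the 5′ end, neighbours merged or other ways of counting tetramers. It was 456 at no more than 20% masked bases, 265 with no masked base and 226 when only log2 fold changes from 3 up were kept. The values below are differences of gene means, motif-rich minus the other class.

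At no more than 20% masked bases the log2 fold change differed by 0.21 from motif-free peaks, by 0.13 from peaks with 1 or 2 starts, by −0.046 from repeat-masked peaks and by 0.036 from peaks near exons, and length by 32.5 nt. With no masked base these were 0.19, 0.050, −0.060, 0.0093 and 46.5 nt. With the window on the 5′ end of the peak they were 0.074, 0.029, −0.084, 0.041 and −0.532 nt, −log10 IDR differed by −0.0099 and the shared fraction with hippocampus by −0.0116. With log2 fold changes from 3 up only, and 5 genes against motif-free peaks, they were −0.19, 0.096, −0.061, −0.034 and 37.7 nt, −log10 IDR differed by −0.17 and flank density by −0.324. By medians per gene the log2 fold change differed by 0.17 from motif-free peaks, 0.089 from 1 or 2 starts and 0.024 from peaks near exons, and length by 20.9 nt. Shares of pairs above 0.5, in the same order, were 0.13, 0.067 and 0.079, and 0.152 for length. Beyond 2000 nt from exons, log2 fold change differed by 0.13 from 1 or 2 starts and 0.057 from peaks near exons and length by 24.2 nt. At 2 starts the value near exons was 0.087 and length 14.4 nt, and after merging neighbours 0.047 and 25.3 nt. With 3 tetramers that do not overlap, length differed by 26.4 nt. None of these values had an adjusted p below 0.05, whereas at 4 starts the −log10 IDR difference of 0.15 passed (exact sign test, adjusted p = 0.0389). The cause of these changes was not tested. The differences in log2 fold change and length within genes thus passed in some settings only, while leaving out adaptor peaks, *Rbfox3* or the 3 leading genes left every call of these comparisons in place, with the difference in length at 13.7 nt without *Rbfox3*.

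No paired analysis was possible because each tissue has 1 merged list, without columns per replicate. The merged lists also limit all values to the sites that passed the authors' thresholds after the replicates were merged by IDR.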
